A study of Mus musculus with 6 samples.

Results

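Expression of 32 genes of protein folding, degradation and stress signalling in the endoplasmic reticulum (ER) was followed in Ba/F3 cells with and without the fusion protein NCOR1-LYN. The genes were taken from a list by function, and for each the brightest probe set, by the mean over the 6 arrays, was taken. All 32 had such a probe set and all 32 passed the filter on dim genes, out of 18193 genes on the array with a probe set of a single gene symbol and 10916 that passed the filter. Ba/F3 is a mouse pro-B cell line that depends on interleukin 3. The cells had been transduced with NCOR1-LYN in the Retro-X Tet-On Advanced system, in which doxycycline switches on the transgene. The control group held 3 cultures without doxycycline (genotype control, DOX(-)), and the NCOR1-LYN group held 3 cultures of cells given doxycycline (expressing NCOR1-LYN, DOX(+)). The series text calls the controls uninduced, or mock, cells and does not spell out that they carry the construct. Dose and time of doxycycline, and whether the line is a single clone, are not given in the sources used here. Doxycycline and the fusion cannot be told apart in this design. Total RNA was hybridised to Affymetrix arrays, 1 per culture. Nothing beyond triplicate culture is stated on how separate the replicates were, so the p-values rest on array-to-array spread alone, which may be technical.

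The ER folds proteins that enter the secretory pathway, with luminal chaperones of the HSP70 and HSP90 families, lectin chaperones that bind sugar chains, and disulfide isomerases that form and reshuffle disulfide bonds. When unfolded protein builds up, the sensors IRE1 (Ern1), PERK (Eif2ak3) and ATF6 start the unfolded protein response: IRE1 splices Xbp1 mRNA, PERK slows translation and raises ATF4, and ATF6 is cut to a transcription factor. XBP1 and ATF6 induce genes of folding, of export and of ER-associated degradation (ERAD), which returns misfolded protein to the cytosol. In B cells the pathway is best known for the enlarged ER of antibody-secreting plasma cells. The splicing of Xbp1 and the cutting of ATF6 were not analysed here.

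Values are MAS5 signals, a linear brightness scale on which the authors had set every array to the same trimmed mean, and the lowest signal of any member was 20.7. Arrays with the replicate number 1 stood apart from the others in both groups. Both replicate 1 arrays lay below all other arrays for 21.4% of the genes tested and above them for 26.8%. The 3′/5′ signal ratio for beta-actin probes was 1.17 and 1.15 on the replicate 1 arrays (control and NCOR1-LYN) and 1.19 to 1.24 on the other 4, and the one for Gapdh was 0.685 and 0.681 against 0.703 to 0.742. Among markers of the labelled pro-B identity, 8 of 16 with a probe set passed the filter. The pan-leukocyte gene Ptprc had signals of 8278 to 10434 and Csf2rb, the common receptor chain for interleukin 3, 12267 to 25885. The B-lineage genes Cd79a, Ebf1 and Rag1 stayed at or under 43 on every array, while Cd79b ran from 403 to 577 and Cd72 from 317 to 700. Igll1 (13.9 to 179), Pax5 (7.65 to 125) and Vpreb3 (15.1 to 70.1) also passed the filter but were dim. Blnk, Dntt, Rag2 and Vpreb1 did not pass it. Of 10 plasma cell markers 4 passed the filter: Xbp1 itself, Tnfrsf13b (2722 to 3641), Ighm (174 to 254) and Mzb1 (67.1 to 143). Jchain (1.2 to 37.9), Sdc1 (2.82 to 65.9) and Prdm1 (20.6 to 56.2) were near background. The summed signal of 14 myeloid markers was 3064 to 3422 in controls and 9102 to 11026 with NCOR1-LYN. Most of it lay in Ngp (153 to 1216 and 4118 to 4686) and Prtn3 (891 to 1763 and 1745 to 4782), while S100a8 and S100a9 were lower in NCOR1-LYN 2 and 3 than in controls 2 and 3. The sum of 11 mast cell markers was 910 to 1906 and 1949 to 4717, in which Fcer1a was higher (341 to 975 and 1596 to 4386) and Cma1 lower (186 to 615 and 5.74 to 80.5). Their part in the values of the ER genes was not tested. In such bulk RNA, fewer cells of a type and less RNA per cell cannot be told apart.

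Promoters of the ER genes are shown first, for the sequence through which the pathway acts on several of them. That sequence was described on promoters of such genes, so its presence is not independent of the choice of genes. The ER stress response element (ERSE: CCAAT, 9 bases of any kind, then CCACG) is the element through which ATF6, XBP1 and the CCAAT-binding factor NF-Y act. It was searched on both strands of the window from 250 bases before to 50 after each start annotated by RefSeq (GRCm38.p6), together with ERSE-II (ATTGG, 1 base of any kind, then CCACG), the XBP1 element UPRE (TGACGTGG) and the ATF4 element CARE (TGATGNAAT). The first 3 share the CCACG core, on one strand or the other, so they are not separate kinds of evidence. Of the 32 genes 28 had a window (29 windows in all), and Atf6, Derl1, Hyou1 and Manf were not among them. An exact ERSE lay in 9 of the 28, namely Hspa5, Hsp90b1, Creld2, Dnajc3, Calr, Canx, Pdia6, Syvn1 and Derl3, while 0.119% of all windows (39 of 32851) held one. ERSE-II lay in 2 (Herpud1 and Dnajb11), against 0.037% of all windows. UPRE lay in 1 (Sec24d, at −26 to −19 from the start), against 0.676%. CARE lay in 0 of the 28 and in 0.965% of all windows. A match is a description of letters, not of binding. The stretches below are those around the matches of the main chaperones, an isomerase, the ERAD ligase and the ERAD scaffold gene, written 5′ to 3′ along the gene with matches in capitals and without bases beyond the start.
Hspa5, chr2:34771995-34772073, plus strand: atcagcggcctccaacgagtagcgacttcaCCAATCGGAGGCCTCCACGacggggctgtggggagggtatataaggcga
Hsp90b1, chr10:86705503-86705686, minus strand: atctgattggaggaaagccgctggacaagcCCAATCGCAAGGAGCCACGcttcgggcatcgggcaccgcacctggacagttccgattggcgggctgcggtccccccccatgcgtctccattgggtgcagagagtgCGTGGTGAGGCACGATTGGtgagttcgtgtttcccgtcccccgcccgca
Creld2, chr15:88819490-88819568, plus strand: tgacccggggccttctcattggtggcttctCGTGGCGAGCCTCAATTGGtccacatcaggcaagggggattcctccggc
Pdia6, chr12:17266461-17266539, plus strand: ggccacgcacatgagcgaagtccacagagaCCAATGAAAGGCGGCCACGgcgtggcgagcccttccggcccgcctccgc
Syvn1, chr19:6046502-6046575, plus strand: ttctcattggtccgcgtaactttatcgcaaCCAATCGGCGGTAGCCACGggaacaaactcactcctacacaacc
Herpud1, chr8:94386347-94386417, plus strand: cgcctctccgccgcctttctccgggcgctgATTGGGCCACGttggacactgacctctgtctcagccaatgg
The Hspa5 match lay 65 to 47 bases before the start, and Hsp90b1 held a pair of matches, at −212 to −194 and at −107 to −89 on the opposite strand. Those of Canx, Calr, Derl3 and Dnajc3 began at −145, −162, −156 and −105. In Dnajb11 the ERSE-II match lay 8 to 18 bases after the start.

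**Figure D1:**
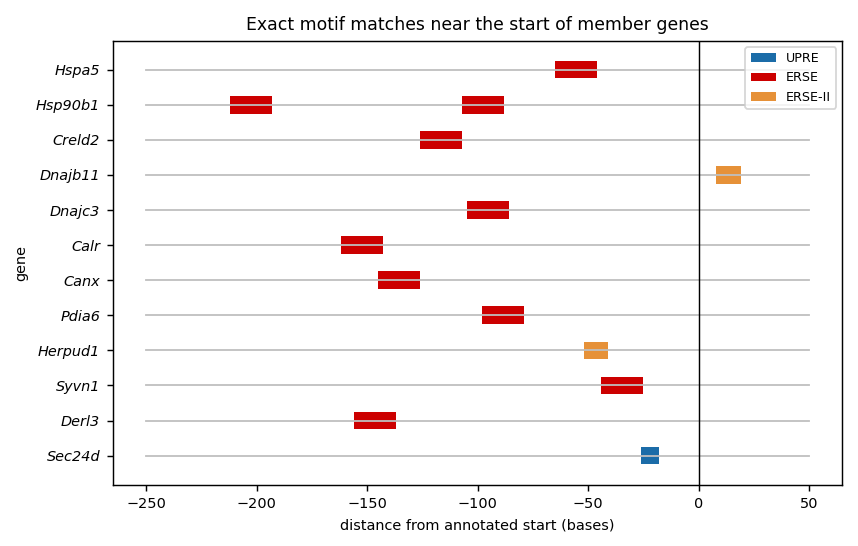
Positions of exact ERSE (red), ERSE-II (orange) and UPRE (blue) matches in the window from 250 bases before to 50 after the annotated start (x axis, bases) of the 12 ER genes with a match (y axis); bars span the matched letters. ERSE matches lie between −212 and −26 from the start, and Hsp90b1 has 2.

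NCOR1-LYN and control cells were compared to find pathways affected when the fusion is induced. None of the ER genes passed the threshold in limma (adjusted p under 0.05 over all genes tested): 0 of 32, beside 0.0824% of all genes tested (9 of 10916). With the replicate number as a block, which compares same-numbered cultures, 0 of 32 passed as well, beside 0.824% of all genes (90). With array weights it was again 0 of 32, beside 4.55% (497). At an unadjusted p under 0.05 there was 1 ER gene (Atf6) without the block, against 4.75% of all genes, and 5 with the block (Sdf2l1, Atf6, Ern1, Xbp1 and Syvn1), against 11.3%. Adjusted p ran from 0.918 to 0.999 without and from 0.28 to 0.995 with the block. The members were split evenly, 16 above and 16 below 0, and their log2 changes ran from −0.29 to 0.49, with a median of 0.01 (−0.01 over all genes tested, where the range was −3.26 to 3.13). For 31 of 32 the 95% interval of the change lay within a 2-fold rise or fall. The exception was Ern1, with an interval of −0.60 to 1.28 on the log2 scale, or 0.09 to 0.58 with the block. The changes by same-numbered pair went apart. The median over the ER genes was 0.26 in pair 1, −0.12 in pair 2 and −0.10 in pair 3, and over all genes tested −0.03, −0.02 and 0.01. In pair 1, 24 ER genes were higher with NCOR1-LYN, where 46.4% of all genes were. In pair 2, 23 were lower (52.9% of all genes), and in pair 3, 26 (48.5%). In 14 of the 32, pair 1 was higher and pairs 2 and 3 were lower, a pattern found in 12.6% of all genes. All 3 pairs were higher in 3 ER genes (15.9% of all genes) and lower in 7 (18.9% of all genes). The difference between pairs was not tested, since each pair is a single comparison.

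**Figure D2:**
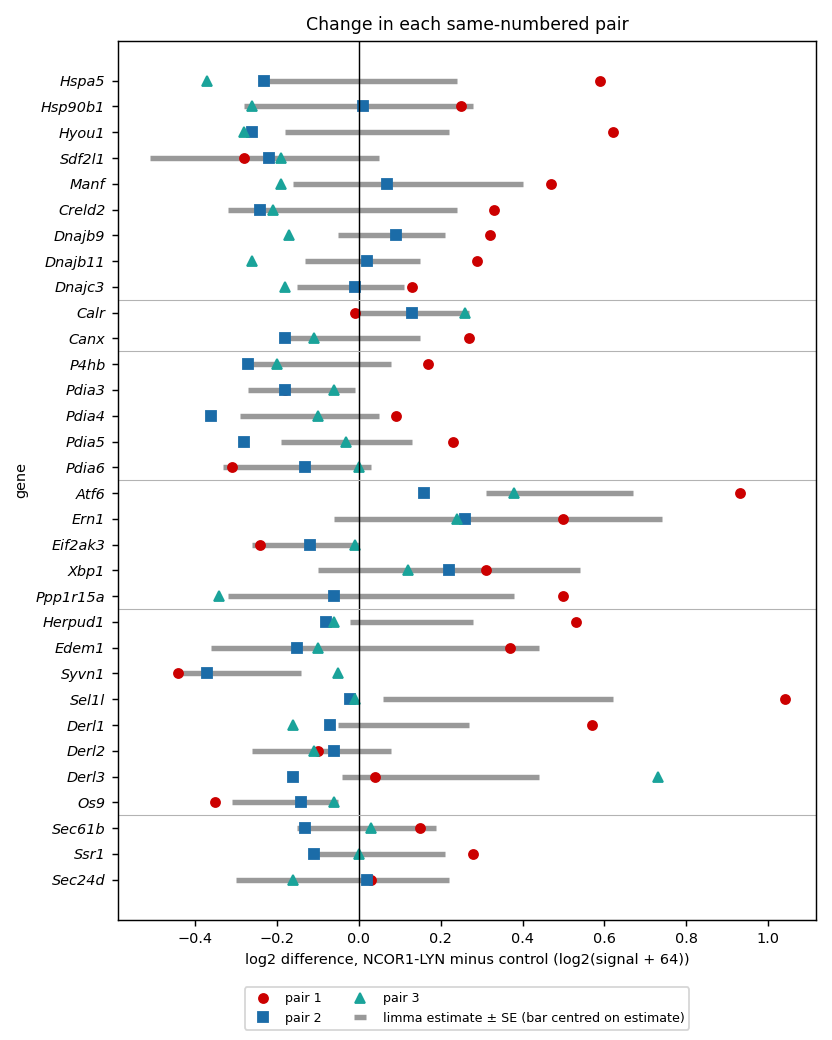
Log2 difference of NCOR1-LYN minus control (x axis, log2(signal + 64)) in each same-numbered pair for the 32 ER genes (y axis, by role); grey bars are the limma estimate with its SE on either side. Pair 1 (red) lies to the right of the other pairs for most genes, up to 1.04 for Sel1l. All 3 pairs are higher in 3 genes (Atf6, Ern1 and Xbp1) and lower in 7, among them Sdf2l1.

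The luminal HSP70 and HSP90 chaperones and their partners (9 genes) had changes of −0.23 to 0.12 on the log2 scale, with a median of 0.00. Hspa5 encodes BiP, the HSP70 of the ER lumen and the usual gauge of the unfolded protein response. Its signals were 6914, 12758 and 13198 in control replicates 1, 2 and 3 and 10445, 10894 and 10165 with NCOR1-LYN. Control 1 was the low array, and the 3 NCOR1-LYN arrays lay between it and the other controls, so the groups overlapped. The log2 change was 0.00 ± 0.24 (SE, n = 3 per group), with a 95% interval of −0.57 to 0.57 (limma adjusted p = 0.999). Without both replicate 1 arrays, Hspa5 was lower with NCOR1-LYN by −0.30 ± 0.06 on the log2 scale and passed the threshold (limma adjusted p = 0.0208), as the only 1 of the 32. That fit held 2 arrays per group and called 6.78% of all genes, 3.62% as lower.

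Hsp90b1, the HSP90 of the ER, had signals of 5453, 9923 and 10412 in controls and 6477, 9978 and 8676 with NCOR1-LYN. Replicate 1 was the low array of each group, and the change was 0.00 ± 0.28. Sdf2l1, a partner of BiP and of its cochaperone Dnajb11, had 2028, 3320 and 3417 in controls and 1657, 2837 and 2987 with NCOR1-LYN. It was lower with NCOR1-LYN in every pair (−0.28, −0.22 and −0.19), yet the groups overlapped because replicate 1 was low in each. Its change was −0.23 ± 0.28 (limma adjusted p = 0.999), or ± 0.09 with the block (0.39). Manf, a small stress-induced protein that binds BiP, had 2982, 5845 and 5886 in controls and 4163, 6146 and 5146 with NCOR1-LYN. Creld2, another stress-induced ER protein, had 607, 1278 and 1204 and then 782, 1071 and 1028. In Manf and Creld2, too, both replicate 1 arrays were below the other 4. Hyou1, the large HSP70 relative that exchanges nucleotide on BiP, had 982, 1525 and 1405 in controls and 1543, 1260 and 1144 with NCOR1-LYN, so its replicate 1 was the lowest of the controls and the highest of the NCOR1-LYN arrays. The J-domain cochaperones that drive BiP varied less. Dnajb9 ran from 1922 to 2423 over the 6 arrays, Dnajb11 from 1398 to 1774 and Dnajc3 from 1780 to 2146, and their changes were 0.08 ± 0.13, 0.01 ± 0.14 and −0.02 ± 0.13.

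Of the lectin chaperones, which hold glycoproteins until they fold, Calr (calreticulin) had 11633, 9044 and 9145 in controls and 11579, 9903 and 10968 with NCOR1-LYN. Replicate 1 was its highest array in each group, and the change was 0.13 ± 0.14. Its membrane-bound relative Canx (calnexin) had 9154, 13306 and 12462 in controls and 11065, 11699 and 11505 with NCOR1-LYN, a change of −0.01 ± 0.16. All 5 disulfide isomerases had changes below 0, from −0.15 to −0.03 (median −0.12), and 0 of them passed. P4hb, the founding isomerase of the family, had 6646, 9833 and 9956 in controls and 7476, 8155 and 8662 with NCOR1-LYN, with replicate 1 lowest in each group. Pdia3, which works with calnexin and calreticulin, was lower in all 3 pairs (−0.18, −0.18 and −0.06), a direction shared by 18.9% of all genes, and its change was −0.14 ± 0.13. Pdia6 ran from 2583 to 4016, Pdia4 from 1159 to 1633 and Pdia5 from 439 to 583, with changes of −0.15 ± 0.18, −0.12 ± 0.17 and −0.03 ± 0.16.

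**Figure D3:**
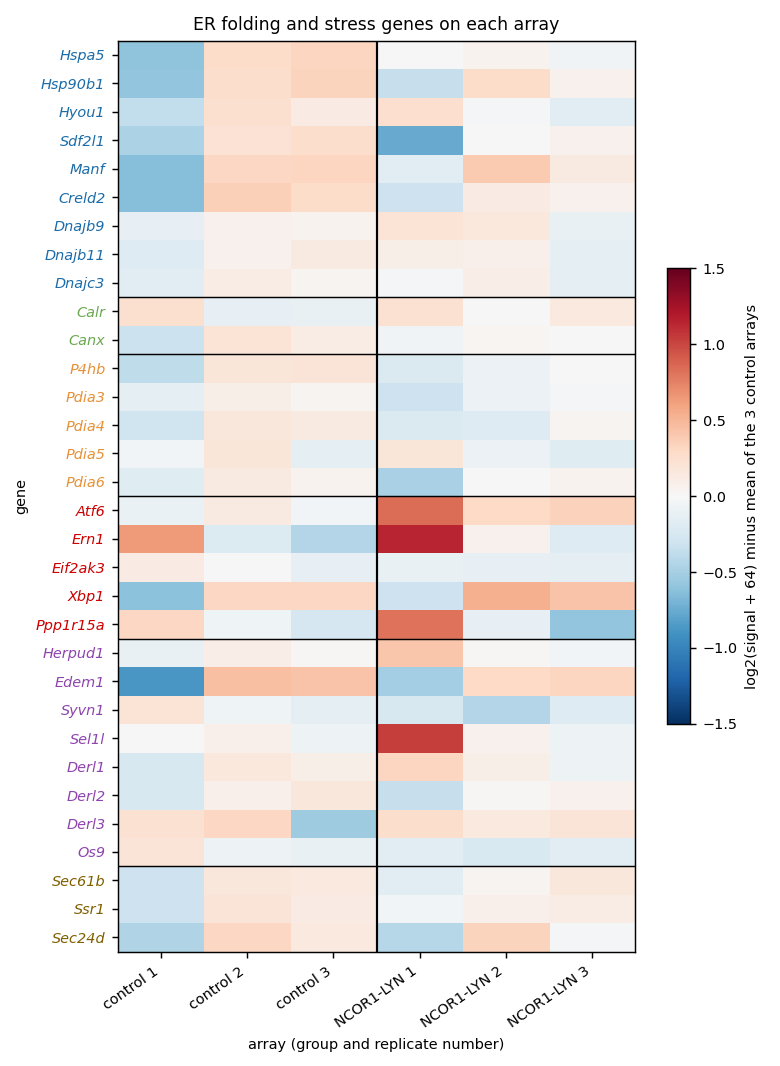
Log2(signal + 64) of each of the 32 ER genes (rows, label colour by role) on each array (columns), minus the mean of the 3 control arrays; blue is lower, red higher. Control 1 is low for Hspa5, Hsp90b1, Manf, Creld2, Xbp1 and Edem1, and NCOR1-LYN 1 is high for Ern1, Sel1l, Atf6 and Ppp1r15a.

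The stress sensors and their factors held the largest change of the list. Atf6, which encodes the cleavable sensor and factor ATF6, had signals of 568, 680 and 597 in controls and 1142, 767 and 794 with NCOR1-LYN. All 3 NCOR1-LYN arrays lay above all controls, and NCOR1-LYN 1 was the highest. Groups that did not overlap were found, with NCOR1-LYN higher, in this 1 of 32 ER genes and in 5.17% of all genes. The log2 change of Atf6 was 0.49 ± 0.18, with a 95% interval of 0.07 to 0.91, and did not pass (limma adjusted p = 0.918, and 0.317 with the block). Its dimmer probe sets had changes of 0.42 and 0.34. The pair changes were 1.08, 0.26 and −0.10 for the first and 0.63, 0.17 and 0.21 for the second. By the first, then, pair 3 was not higher with NCOR1-LYN. Ern1, the gene of the kinase and nuclease IRE1, had 2035, 1107 and 932 in controls and 2912, 1343 and 1111 with NCOR1-LYN. Each NCOR1-LYN array exceeded the control of the same number (pair changes of 0.50, 0.26 and 0.24), but control 1 exceeded NCOR1-LYN 2 and 3. The change was 0.34 ± 0.40, or ± 0.10 with the block (limma adjusted p = 0.999, and 0.28 with the block). Dimmer Ern1 probe sets above the filter had changes of 0.72 and −0.05, the latter with pair changes of 0.64, −0.70 and −0.07. Xbp1, whose mRNA IRE1 splices, had 6753, 12881 and 12950 in controls and 8388, 15032 and 14070 with NCOR1-LYN. Here, too, every pair was higher with NCOR1-LYN (0.31, 0.22 and 0.12), a direction shared by 3 of 32 ER genes (Atf6, Ern1 and Xbp1) and 15.9% of all genes, and replicate 1 was low in both groups. The change was 0.22 ± 0.32, or ± 0.09 with the block (limma adjusted p = 0.999, and 0.431 with the block), and the 3 further Xbp1 probe sets had 0.26, 0.30 and 0.36. Eif2ak3, the gene of PERK, ran from 805 to 979 over the 6 arrays with a change of −0.13 ± 0.13. Ppp1r15a, which encodes the phosphatase subunit that reverses the block of translation by PERK, had 2082, 1587 and 1381 in controls and 2970, 1522 and 1076 with NCOR1-LYN. Replicate 1 was its highest array in each group, and the change was 0.03 ± 0.35.

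**Figure D4:**
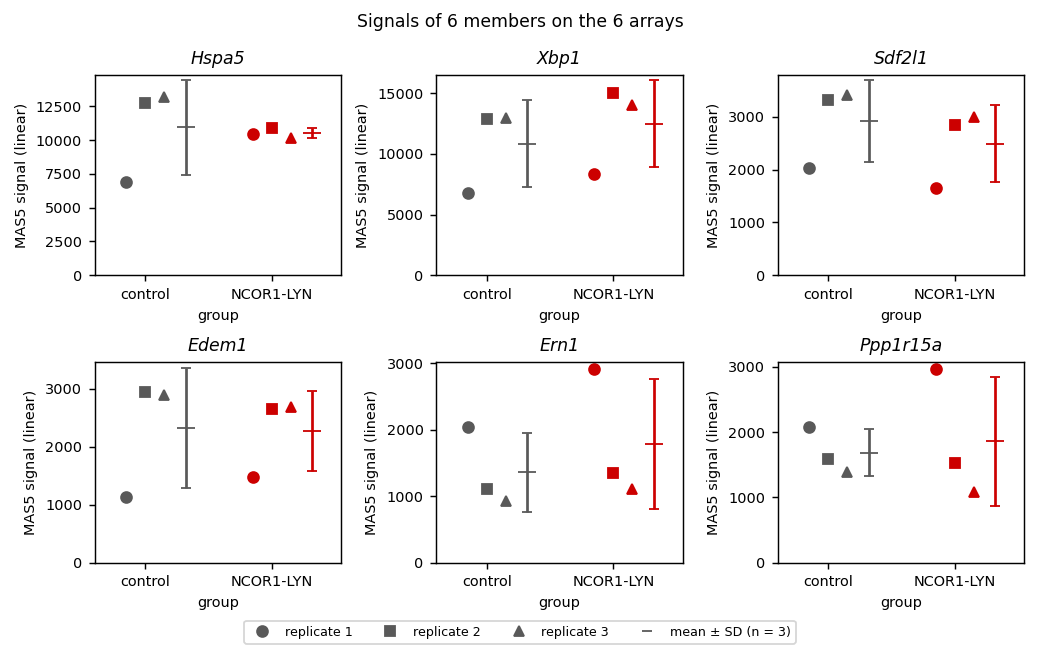
MAS5 signals (y axis, linear, from 0) of 6 ER genes on the 3 control (grey) and 3 NCOR1-LYN (red) arrays, with replicates 1, 2 and 3 as circle, square and triangle and the mean ± SD (n = 3) at the right of each group. Replicate 1 is the lowest array of each group for Xbp1, Sdf2l1 and Edem1 and the highest for Ern1 and Ppp1r15a, and for Hspa5 control 1 alone is low.

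The 8 genes of ER-associated degradation had changes from −0.29 to 0.34 (median 0.08). Syvn1, the ubiquitin ligase of the pathway, had 1354, 1106 and 1047 in controls and 978, 843 and 1010 with NCOR1-LYN. All its NCOR1-LYN arrays lay below all controls, as did those of Os9, a lectin that hands glycoproteins to the ligase (1686, 1384 and 1350 in controls, 1310, 1247 and 1292 with NCOR1-LYN). These were 2 of 32 ER genes, where 6.06% of all genes had groups apart in that direction. The changes were −0.29 ± 0.15 for Syvn1 (95% interval −0.63 to 0.06) and −0.18 ± 0.13 for Os9, both with a limma adjusted p of 0.999. The second probe set of Syvn1 had a change of −0.06. That of Os9 had −0.10, and its pair 2 was higher with NCOR1-LYN (0.17), so both results depend on the probes. Sel1l, the adaptor of that ligase, had 1222, 1301 and 1165 in controls and 2584, 1286 and 1158 with NCOR1-LYN. Only NCOR1-LYN 1 was high, so the change of 0.34 ± 0.28 came from pair 1 (1.04, against −0.02 and −0.01), and without both replicate 1 arrays it was −0.01. Derl1, a channel-like membrane protein, had 4331, 5753 and 5465 in controls and 6460, 5479 and 4878 with NCOR1-LYN, a change of 0.11 ± 0.16. Its relative Derl2 ran from 1502 to 2181 (−0.09 ± 0.17), and Derl3 lay near background, at 20.7 to 88.1 (0.20 ± 0.24). Herpud1, a stress-induced scaffold of the ligase, had 3585, 4173 and 3937 in controls and 5205, 3933 and 3766 with NCOR1-LYN, again with only NCOR1-LYN 1 high. Edem1, a mannosidase-like protein that marks glycoproteins for degradation, had 1136, 2942 and 2896 in controls and 1482, 2651 and 2693 with NCOR1-LYN. Replicate 1 was its low array in each group, and the change was 0.04 ± 0.40.

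For entry into the ER and export from it, Sec61b, a subunit of the translocon, ran from 10643 to 14868 and Ssr1, of the translocon-associated complex, from 4914 to 7016. Sec24d, a cargo adaptor of COPII vesicles, had 708, 1242 and 1104 in controls and 724, 1262 and 978 with NCOR1-LYN. Their changes were 0.02 ± 0.17, 0.05 ± 0.16 and −0.04 ± 0.26, and replicate 1 was the lowest array of each group for all 3.

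Levels among the 3 replicate numbers were tested by an F test in limma, in the fit with group and replicate, which singles out no replicate. It called 8 of 32 ER genes (25.0%), beside 13.0% of all genes tested (1423 of 10916): Ern1, Xbp1, Edem1, Sdf2l1, Sec24d, Hsp90b1, Ppp1r15a and Manf, with limma adjusted p from 0.00742 (Ern1) to 0.0456 (Manf). Of these, Sdf2l1 and Xbp1 were called in each of the 8 other settings with all arrays, Ern1, Edem1 and Sec24d in 7, Ppp1r15a in 4 and Hsp90b1 and Manf in 3. The count was 4 without the filter, 5 after quantile normalisation or without the intensity trend, and 3 with probe sets averaged. Over all genes the calls were 579, 1160, 859 and 1032 in those settings, in that order. The count also turned on single arrays, as did the calls over all genes (in brackets). It was 0 without control 2 (14) or without NCOR1-LYN 2 (15). At an unadjusted p under 0.05 there were 10 each, beside 2306 and 2269 of all genes. The count was 2 without control 3 (263), 3 without NCOR1-LYN 3 (311), 16 without control 1 (3841) and 19 without NCOR1-LYN 1 (4447). Each of these fits kept only 1 array of the replicate number concerned, so their counts are not like those with all arrays. By role, the calls were 3 of 9 chaperones and partners, 0 of 5 isomerases, 0 of 2 lectin chaperones, 3 of 5 sensors and factors, 1 of 8 ERAD genes and 1 of 3 of translocon and export.

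The direction is described as replicate 1 against the mean of replicates 2 and 3, with no test, since replicate 1 was already known to stand apart. In controls, 25 of 32 ER genes were lower in replicate 1 (45.2% of all genes were), with a median of −0.33 on the log2 scale against 0.05 over all genes tested. With NCOR1-LYN 17 were lower (47.5% of all genes), with a median of −0.01 against 0.03. By at least 1.5-fold, 8 were lower in control 1 (8.23% of all genes) and 3 in NCOR1-LYN 1 (7.61%). The 3 that were so in both groups were Sdf2l1, Xbp1 and Edem1, beside 3.31% of all genes. Without NCOR1-LYN 3 that number was 5, and with probe sets averaged it was 2. Xbp1 in replicate 1 stood at 0.523 times the mean of replicates 2 and 3 in controls and 0.576 times with NCOR1-LYN. The ratios of Edem1 were 0.389 and 0.555, and those of Sdf2l1 0.602 and 0.569. Sec24d was just outside the limit, with log2 differences of −0.68 and −0.58. In the other 5 with a low control 1, namely Hspa5, Hsp90b1, Manf, Creld2 and Sec24d, control 1 stood at 0.533, 0.536, 0.508, 0.489 and 0.603 times the other controls, and NCOR1-LYN 1 at 0.992, 0.694, 0.737, 0.745 and 0.647 times the other NCOR1-LYN arrays.

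Ern1 alone was higher by at least 1.5-fold in replicate 1 of both groups, at 2.0 and 2.37 times the mean of replicates 2 and 3, where 5.71% of all genes were. With probe sets averaged it was under that limit, and the F test did not call it (limma adjusted p = 0.0924). The same ratios were 1.40 and 2.29 for Ppp1r15a and 0.991 and 2.12 for Sel1l. By the chosen probe sets, Ern1 was at its highest on the replicate 1 arrays and Xbp1, Edem1 and Sdf2l1 at their lowest, but other probe sets of Ern1 and Edem1 differed, as given with the further probe sets. The lower 3′ to 5′ ratios of beta-actin and Gapdh moved with the same arrays, and their part in these differences was not tested. The 9 genes with an exact ERSE had a median of −0.28 in controls and −0.01 with NCOR1-LYN. The 19 with a window and no exact ERSE had −0.29 and −0.13. With ERSE-II counted as well, the 11 with a match had −0.28 and −0.01, and the 17 without had −0.37 and −0.14. The median changes with NCOR1-LYN were −0.01 for the 9 and 0.01 for the 19, and 0.00 for the 11 and −0.03 for the 17.

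**Figure D5:**
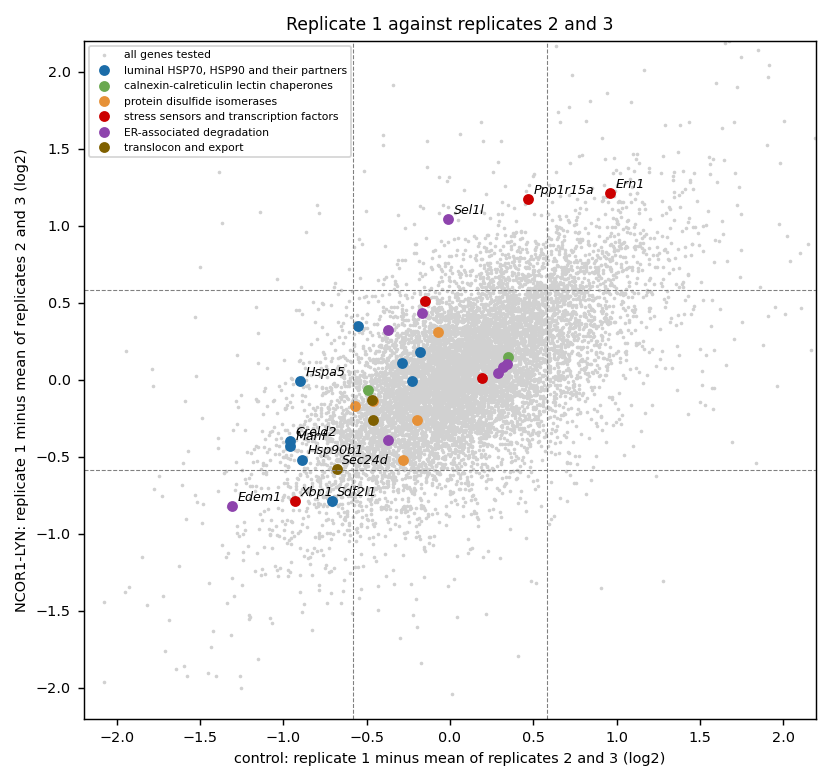
Log2 difference of replicate 1 from the mean of replicates 2 and 3 in controls (x axis) and with NCOR1-LYN (y axis) for the genes tested (grey; 46 lie outside the axes) and the 32 ER genes (coloured by role); dashed lines mark 1.5-fold. Sdf2l1, Xbp1 and Edem1 lie in the lower left corner, Ern1 in the upper right, and Hspa5 is low in controls only.

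Further probe sets of the same genes read the same RNA and so say nothing of the spread between cultures, but show where a value hangs on the choice of probes. The 32 genes had 74 probe sets, and 11 genes had 1 each. Of 36 further probe sets above the filter, in 18 genes, 28 had the sign of the chosen one for the change with NCOR1-LYN, 29 for replicate 1 in controls and 26 for replicate 1 with NCOR1-LYN. All 4 Xbp1 probe sets were low in replicate 1 of both groups, by −0.53 to −1.34 in controls and −0.54 to −1.49 with NCOR1-LYN. All 3 of Hspa5 were low in control 1 (−0.57 to −1.55). Edem1 was not alike: its second probe set had 0.19 in controls and 1.0 with NCOR1-LYN, against −1.31 and −0.82 for the chosen one, so its direction depends on the probes. The further Ern1 probe sets above the filter had 0.21 and 0.01 in controls, against 0.96 for the chosen one, and 0.92 and 1.04 with NCOR1-LYN, against 1.21. The second probe set of Hsp90b1 had −0.14 and 0.32, against −0.89 and −0.52. All 4 Derl1 probe sets were higher in NCOR1-LYN 1 (0.32 to 1.05), and so were 4 of the 5 of Sel1l, the fifth having −0.31. The name of the chosen Xbp1, Hyou1, Canx, Syvn1 and Derl1 probe sets carries the suffix by which Affymetrix marks probes shared between transcripts, so other transcripts can add to their signal.

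Other genes of the pathway, from lists written by function, gave 0 calls without the block in each list. At an unadjusted limma p under 0.05 there was 1 of 23 ERAD genes (Erlec1) and 1 of 27 cytosolic chaperones (Dnajb4). The other lists had 0, and 4.75% of all genes were under that limit. Of other ER folding factors, 29 of 32 were tested, 11 were higher and 18 lower, and the median was −0.03. The largest change in this list was that of the J-domain gene Dnajb2, 0.49 ± 0.28 (limma adjusted p = 0.999). Its pair changes were −0.06, 0.81 and 0.71. Of other ERAD genes, 23 of 24 were tested, with 4 above and 19 below 0 and a median of −0.07. With the block 1 of the 23 was called as lower, where 61 of 10916 over all genes were. It was Erlec1, a lectin of the same family as Os9, lower by 0.71 on the log2 scale. Its signals were 2917, 1966 and 2081 in controls and 1561, 1325 and 1259 with NCOR1-LYN, so the groups lay apart, and every pair was lower (−0.88, −0.55 and −0.70). The limma adjusted p was 0.0404 with and 0.534 without the block. Translocation and N-glycosylation genes (29 of 31 tested) had a median of 0.00 and at most −0.26 ± 0.14, for the translocon gene Sec61a1. COPII and retrieval genes (24 of 27) had a median of −0.01, and the largest change was 0.33 ± 0.14 for Sec24a, a relative of Sec24d. Other regulators (16 of 18) had a median of 0.00, and the largest change, −0.45 ± 0.25 for Creb3l3, was near background (signals of 11.8 to 89.9).

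The PERK and ATF4 list (14 of 18 tested) had 13 genes above 0, beside 5147 of 10916 over all genes, and a median of 0.28. Its pair medians were 0.99, 0.04 and −0.05, so most of the height of the median came from pair 1. All 3 pairs were higher in 5 of the 14 (15.9% of all genes) and lower in 1 (18.9%). The groups lay apart with NCOR1-LYN higher in 2 of the list's 14 genes (5.17% of all genes) and lower in 1 (6.06%). In control 1, 10 of its 14 were lower than in the other controls by at least 1.5-fold (8.23% of all genes were), and in NCOR1-LYN 1 there was 1. Nupr1, a stress-induced chromatin protein and a target of ATF4, had 255, 2347 and 2221 in controls and 1491, 3070 and 2137 with NCOR1-LYN. Replicate 1 was its lowest array in each group, unlike Hspa5, for which control 1 alone was low. The change of 0.87 ± 0.75 did not pass (limma adjusted p = 0.999). Cytosolic chaperones (27 of 32 tested) had 14 above and 13 below 0 and a median of 0.01. With the block 1 of 27 was called as lower, where 61 of 10916 over all genes were. It was the J-domain gene Dnajb4, lower by 0.69 on the log2 scale (limma adjusted p = 0.0341, and 0.913 without the block). Its signals went from 2167, 1306 and 1304 to 1254, 822 and 789. The replicate F test called 27.6% of the translocation and glycosylation genes (8 of 29), 20.8% of COPII genes, 17.2% of folding factors, 13.0% of ERAD genes, 12.5% of regulators, 11.1% of cytosolic chaperones and 7.14% of the PERK and ATF4 list, beside 13.0% of all genes.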

How the data were processed

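RNA of 6 Ba/F3 cultures, 3 control and 3 NCOR1-LYN by the labels, was measured on 1 array each. The deposited table holds linear intensities per probe set, for which the submitters' processing notes name MAS5 (version not given in the sources used here). MAS5 subtracts background and mismatch signal, so dim probe sets are noisy. Scaling is visible in the table: without the top and bottom 2%, every array averages 500. Precision is limited by how few arrays there are.

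Values were used as log2(signal + 64), on which scale fold changes of dim genes are understated. Of 45101 probe sets, 34945 had 1 gene symbol in the platform annotation and were used; 932 had several and 9160 had none. Symbols matched through Entrez identifiers, and 0 changed. Each gene took its probe set with the highest mean signal, and genes whose mean log2 value fell under the 40th percentile, which is a signal near 47, were not tested. Tests used limma 3.58.1 in R 4.3.3 (lmFit, eBayes with intensity trend; 4 residual degrees of freedom, 2 with the replicate block), with Benjamini-Hochberg adjustment over 10916 genes and a two-sided threshold of 0.05. The fits were tested on simulated data with known changes. Deviations from group means, correlated across genes, gave 0.62, 0.41 and 0.44 for arrays of replicate 1, 2 and 3, over the limit of 0.1 set for pairing; control 3 and NCOR1-LYN 2 gave 0.49, so replicates 2 and 3 were not told apart. The labels state no shared day.

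The members, lists and the description of replicate 1 were chosen with earlier results of these data known, so no list was tested. All members are named, and of each other list the genes past the threshold in either fit (up to 4), or else the one with the largest change. Promoter windows came from RefSeq (GRCm38.p6). Alternatives covered the block, offset, filter, scaling, probe sets, trend, array weights and left-out arrays.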

Additional observations from a re-analysis of the deposited data

How the results depend on the processing

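No ER gene was called for NCOR1-LYN against control in any of 15 of the 16 alternatives, among them the replicate block, and 1 (Hspa5, −0.30) was called without both replicate 1 arrays; with the filter at the 60th percentile 31 of the 32 were tested. Over all genes 9 were called, against 90 with the replicate block, 497 with array weights, 740 without both replicate 1 arrays, 1 without the filter, 1 with it at the 60th percentile, and 0 to 15 with 1 array left out. The replicate block changed no call among the ER genes. The median change of the ER genes moved by less than the spread of the 3 pair medians (SD 0.21) in every alternative. Pair 1 made that spread wide (0.26, against −0.12 and −0.10), so it is a loose limit. The median was 0.01 with the main settings, and its sign turned in some alternatives. It was −0.11 with array weights, −0.12 without control 1, −0.10 without both replicate 1 arrays and 0.11 without control 2. The sign of the change was the same in all 16 alternatives for 8 ER genes (Calr, P4hb, Pdia3, Pdia4, Atf6, Eif2ak3, Syvn1 and Os9) and turned at least once for the other 24, none of them called with all arrays and none over 0.34 in size. With array weights the turned values were −0.26 (Hyou1), −0.07 (Manf), −0.04 (Dnajb9), −0.11 (Dnajb11 and Derl1), −0.20 (Ppp1r15a), −0.06 (Herpud1 and Ssr1), −0.14 (Edem1) and −0.05 (Sec61b). Without both replicate 1 arrays they were −0.27 (Hyou1), −0.06 (Manf and Ssr1), −0.04 (Dnajb9), −0.12 (Dnajb11, Edem1 and Derl1), −0.20 (Ppp1r15a), −0.07 (Herpud1), −0.01 (Sel1l) and −0.05 (Sec61b). With probe sets averaged, Dnajc3 had 0.02 and Derl2 0.05. With 1 array left out, the changes ran from −0.30 to 0.16 (Hspa5), −0.30 to 0.17 (Hsp90b1), −0.16 to 0.14 (Hyou1), −0.47 to 0.03 (Sdf2l1), −0.20 to 0.28 (Manf), −0.36 to 0.14 (Creld2), −0.09 to 0.08 (Dnajb11), −0.10 to 0.04 (Dnajc3), −0.17 to 0.10 (Canx), −0.13 to 0.07 (Pdia5), −0.25 to 0.03 (Pdia6), −0.07 to 0.66 (Ern1), −0.09 to 0.48 (Xbp1), −0.36 to 0.35 (Ppp1r15a), −0.02 to 0.21 (Herpud1), −0.40 to 0.31 (Edem1), −0.01 to 0.55 (Sel1l), −0.01 to 0.21 (Derl1), −0.21 to 0.04 (Derl2), −0.07 to 0.36 (Derl3), −0.14 to 0.11 (Sec61b), −0.10 to 0.15 (Ssr1) and −0.26 to 0.15 (Sec24d).

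For the F test of replicate number, whose other settings beyond offset and filter were added after the data were seen, 1423 genes were called, against 579 without the filter, 859 without the trend, 823 with array weights and 14 to 4447 with 1 array left out. After quantile normalisation 1160 genes were called, and with probe sets averaged 1032. The 8 ER genes became 4 without the filter, 5 after quantile normalisation, 5 without the trend, 3 with probe sets averaged, and 0 to 19 with 1 array left out. The 3 ER genes low in replicate 1 of both groups were 3 to 5 with 1 array left out. They were 4 with an offset of 16 or after quantile normalisation, and 2 with probe sets averaged. The 1 that was high became 0 with probe sets averaged. The cause of these shifts was not tested. Only Derl3 among the ER genes was near background, where signal limits the value.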
